A study of Mus musculus with 2 samples.

Results

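Cells keep oxidants and reactive metals in check with a set of connected systems, and 44 genes of these systems were followed here out of 18194 mouse genes that the arrays name by a probe set of their own. The genes were chosen by symbol: the glutathione and thioredoxin pathways, the transcription factor NRF2 (gene Nfe2l2) with its inhibitor KEAP1, superoxide dismutases and catalase, and the metallothioneins with their regulator MTF1. All 84 probe sets annotated to one of these symbols alone were kept. They cover 41 of the 44 genes, and 39 genes were measured, which means that the brightest probe set reached a floor of 8.07 signal units on at least 1 array. Gpx3 and Gstt2 stayed below the floor on both arrays. Prdx5 and Prdx6 were not analysed, since no probe set carries their names here, and Prdx1 shares its 5 probe sets with the predicted gene Gm21399.

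The arrays compare NIH3T3 cells, a line of mouse fibroblasts, infected with a retrovirus that expresses a short hairpin RNA against CCR4b (Cnot6l) with the same cells infected with a control RNAi retrovirus. Both cultures grew in DMEM with fetal bovine serum. CCR4b is a deadenylase of the CCR4-NOT complex, an enzyme that removes poly(A) tails and so starts the decay of mRNAs, and the comparison asks which transcripts differ when it is depleted. The labels do not give the hairpin sequences or the time after infection. Each group is 1 culture on 1 Affymetrix array, so the values carry no replicate error, the groups could not be tested against each other, and "higher" or "lower" describes this pair of arrays only. In RNA from whole cultures, fewer cells with a transcript and less of it per cell cannot be told apart.

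In these systems, NRF2 is held in the cytoplasm and marked for degradation by KEAP1, and oxidants or electrophiles release it to switch on genes that carry an antioxidant response element. Its targets include the enzymes that make glutathione, the small thiol that peroxidases and transferases spend on peroxides and foreign compounds, and thioredoxin reductase, which keeps thioredoxins and peroxiredoxins working. Metallothioneins are small cysteine-rich proteins that bind zinc, copper and cadmium, and their transcription follows the zinc-sensing factor MTF1 through metal response elements.

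The members differed in both directions. The metallothionein gene Mt2 was at least 2-fold higher after CCR4b RNAi, Mt1 was 2.01-fold higher on its bright probe set (log2 ratio 0.91 with the arrays divided by their medians and 0.48 as the median over its probe sets), and the glutathione transferases Gstm2, Gstt1 and Mgst1 and the thioredoxin inhibitor Txnip were also higher. The enzymes of glutathione synthesis, the thioredoxins and both thioredoxin reductases were lower on each probe set that passed the floor on both arrays. Among the 39 measured members, 8 passed a 1.5-fold difference upwards and 7 downwards, while among all 11915 measured genes 11.3% were at least 1.5-fold higher and 14.6% at least 1.5-fold lower. With quantile normalization or loess these member counts were 9 and 4. Of all genes, 1429 of 11911 were higher and 1547 lower with quantile normalization, and 1461 of 11915 higher and 1505 lower with loess. The median log2 ratio of CCR4b RNAi over control RNAi was -0.17 for the members and -0.070 for all measured genes. At 2-fold the members numbered 4 higher and 2 lower, against 3.74% and 4.48% of all genes. With the arrays divided by their medians, Mt2 alone stayed 2-fold higher, beside 3.05% of all genes. Mt1, Gstm2 and Gstt1 then had log2 ratios of 0.91, 0.94 and 0.94.

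Several facts of the arrays bear on these values. The targeted gene Cnot6l read lower on 4 of 4 probe sets, and its brightest gave 43.0 units after CCR4b RNAi and 102 units in the control. Bright genes were slightly lower as a whole. When genes were split into 10 classes by signal, the brightest class of 1191 genes had its median log2 ratio at -0.17 and a robust SD (scaled median absolute deviation) of 0.36. This class holds 22 of the 39 measured members, and over all of them 19 lay above and 20 below the median of their own signal class. The spread between probe sets of the same gene amounted to 0.30 log2 units, as a robust SD per probe set. It was taken over 4550 genes from the difference between the brightest and the next brightest probe set, scaled to a single probe set. The 9 fibroblast markers were above the floor on both arrays, while all 3 endothelial markers and 3 of 4 epithelial markers were below it on both. Of 3 leukocyte markers, Cd68 and Adgre1 were above the floor, and the list summed to 23.2 units after CCR4b RNAi and 42.4 units in the control. The part of these markers in the results was not tested. The 3′ to 5′ signal ratio of Actb was 1.46 after CCR4b RNAi and 1.35 in the control, and that of Gapdh was 0.819 and 0.824 in the same order.

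**Figure D1:**
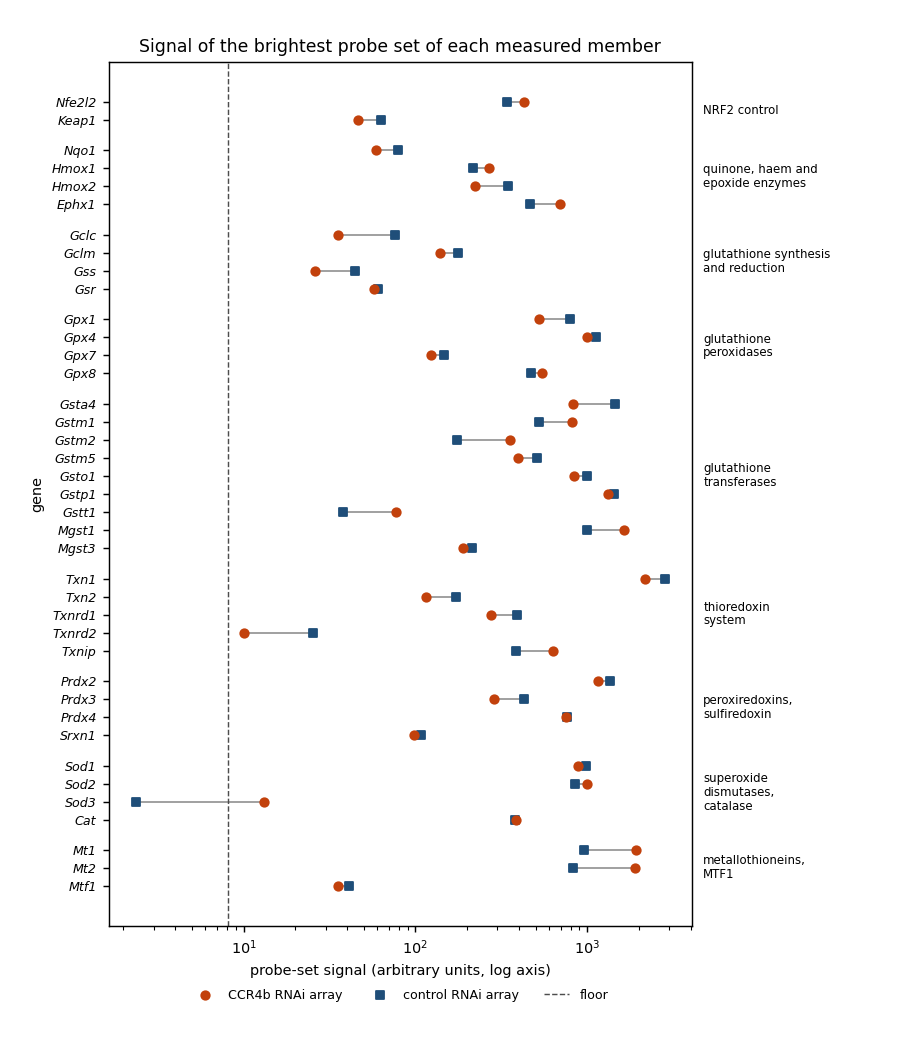
Signal of the brightest probe set of each of the 39 measured members (arbitrary units, log axis), grouped by role, with 1 point for the CCR4b RNAi array and 1 for the control RNAi array and the floor of 8.07 units as a dashed line. Sod3 is the only one of these members whose control signal lies below the floor, and the Mt1 and Mt2 points of the CCR4b RNAi array, at 1915 and 1885 units, lie to the right of the control points.

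NRF2 and its inhibitor differed by less than 1.5-fold. Nfe2l2 read 430 units after CCR4b RNAi and 343 units in the control (1.26-fold higher, log2 ratio 0.33), and its second probe set was below the floor on both arrays. Keap1, whose product recruits a ubiquitin ligase to NRF2, had a log2 ratio of -0.43 on the brighter of its probe sets, with 46.4 units after CCR4b RNAi and 62.6 in the control. Its dimmer probe set pointed the other way, with 41.2 units after CCR4b RNAi and 36.2 in the control, so the data give no single direction for Keap1.

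The classic inducible enzymes also went both ways. Nqo1, a quinone reductase often used as a readout of NRF2, had 59.1 units after CCR4b RNAi and 79.2 in the control (1.34-fold lower). Hmox1, the inducible haem oxygenase, had 267 units after CCR4b RNAi and 217 in the control (1.23-fold higher). Hmox2, its constitutive relative, was 1.54-fold lower, with 222 units after CCR4b RNAi and 343 in the control. It fell short of 1.5-fold with quantile normalization (log2 ratio -0.45) and with loess (-0.45). Ephx1, microsomal epoxide hydrolase, lay just short of the 1.5-fold line with 697 units after CCR4b RNAi and 467 in the control (1.49-fold higher). It passed the line with quantile normalization (log2 ratio 0.74) and with loess (0.75). Each of these 4 genes has 1 probe set, so no second reading exists.

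The antioxidant response element was searched for as its core TGACNNNGC on both strands, in RefSeq promoter windows of 300 bases (250 before and 50 after each annotated start, build GRCm38.p6). Windows were at hand for 37 of the 44 members, and 9 of these genes held the core, beside 14.0% of all 27025 genes with a window. Gclc, Gsr, Gsta4, Gstt2, Hmox1, Prdx6 and Sod3 had no window and were not searched. The stretches of 5 members are shown because their transcripts read in different directions as deposited. The core is in capitals as it lies on the strand of the gene. For Gclm, Srxn1, Txnrd1 and Mgst1 the core is read on the opposite strand, and Txnrd1 and Mgst1 carry it at 1 of their annotated starts.
Gclm, chr3:122245413-122245441, + strand: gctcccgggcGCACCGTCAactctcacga
Txnrd1, chr10:82859104-82859132, + strand: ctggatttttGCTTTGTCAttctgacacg
Srxn1, chr2:152105542-152105570, + strand: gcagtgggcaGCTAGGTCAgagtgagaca
Mgst1, chr6:138140461-138140489, + strand: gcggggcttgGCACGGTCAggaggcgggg
Nfe2l2, chr2:75704885-75704913, - strand: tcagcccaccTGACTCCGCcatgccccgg
Of these, Gclm, Txnrd1 and Srxn1 read lower and Mgst1 and Nfe2l2 read higher after CCR4b RNAi. Srxn1 barely differed on its brightest probe set, with a log2 ratio of -0.14 (-0.015 with loess), at percentile 49.9 of genes of like signal. The Srxn1 core begins at position 29, after the annotated start. The other 4 matches lie in Gstm5, Mt2, Prdx1 and Sod1. A match of letters is a description of the window and says nothing of NRF2 binding.

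The 4 genes that make or regenerate glutathione were lower on all 8 of their probe sets, while 55.4% of 17516 such probe sets of all named genes read lower; with loess or quantile normalization 7 of the 8 stayed lower. Gclc, the catalytic subunit of glutamate-cysteine ligase and the rate-limiting step of the pathway, had 35.3 units after CCR4b RNAi and 76.0 in the control, 2.15-fold lower (log2 ratio -1.11), at percentile 3.44 of genes of like signal. Its second probe set, of the _s_at kind that can hybridise to several transcripts, gave 34.3 units after CCR4b RNAi and 41.3 in the control (log2 ratio -0.27). The pair thus shares a direction but not a size. Gclm, the modifier subunit of the same ligase, was 1.27-fold and 1.32-fold lower on its probe sets. Gss, glutathione synthetase, had 26.0 units after CCR4b RNAi and 44.8 in the control (1.72-fold lower), with 1.26-fold lower on an _x_at probe set.

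Gsr, the reductase that restores oxidised glutathione, gave values that depend on the probe set. The brighter read 57.7 units after CCR4b RNAi and 60.8 in the control (log2 ratio -0.076), which turned to 0.019 with a loess correction and 0.027 with quantile normalization. The dimmer read 35.1 units after CCR4b RNAi and 57.9 in the control, 1.65-fold lower. The median log2 ratio of the 4 genes was -0.57, and it lay between -0.66 and -0.50 under the other scalings.

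Glutathione peroxidases, which reduce peroxides at the cost of glutathione, differed less. Gpx1, the main cytosolic enzyme, had 525 units after CCR4b RNAi and 789 in the control, a log2 ratio of -0.59 at the very edge of the 1.5-fold line. Gpx4, which protects membrane lipids, had log2 ratios of -0.16 and -0.073 on its probe sets. Gpx7 and Gpx8, both of the endoplasmic reticulum, had log2 ratios of -0.24 and 0.21. Gpx3, the secreted plasma enzyme, read 2.41 units after CCR4b RNAi and 1.33 in the control, below the floor.

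Glutathione transferases couple glutathione to electrophiles, and of the 9 measured, 4 passed 1.5-fold upwards, 1 downwards, and 4 lay between. Of all measured genes, 11.3% passed 1.5-fold upwards and 14.6% downwards. The 4 higher transferases include Gstm1, which passed only on a probe set of the _x_at kind. Gstm2, of the mu class, had 357 units after CCR4b RNAi and 174 in the control, 2.05-fold higher (log2 ratio 1.04). Gstt1, of the theta class, had 77.3 units after CCR4b RNAi and 37.9 in the control, 2.04-fold higher. Mgst1, a membrane-bound transferase, had 1633 units after CCR4b RNAi and 992 in the control, 1.65-fold higher. These genes lay at percentiles 98.1, 97.1 and 96.9 of genes of like signal. Each rests on 1 probe set, since the second of Mgst1 was below the floor on both arrays.

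Gstm1 was higher on all 4 of its probe sets, but only the brightest, of the _x_at kind, passed 1.5-fold. That probe set read 809 units after CCR4b RNAi and 526 in the control (1.54-fold higher). The next, which is not of that kind, read 628 units after CCR4b RNAi and 513 in the control (1.22-fold), and the dimmer ones had log2 ratios of 0.19 and 0.13. Gstm1 and Gstm2 are neighbours in a chromosome 3 cluster of near-identical mu-class genes, so signal can pass between their probe sets. Gstm5, further along the cluster, had a log2 ratio of -0.37.

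Gsta4, an alpha-class enzyme that acts on the lipid peroxidation product 4-hydroxynonenal, was the transferase past 1.5-fold in the other direction. It had 829 units after CCR4b RNAi and 1450 in the control, 1.75-fold lower, at percentile 5.29 of genes of like signal. Gstp1, Gsto1 and Mgst3 had log2 ratios of -0.11, -0.26 and -0.18 on their brightest probe sets, and that of Gstp1 turned to 0.035 with a loess correction. Gstt2 read 1.31 units after CCR4b RNAi and 5.07 in the control, below the floor.

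In the thioredoxin system, the thioredoxins and their reductases were lower and the inhibitor was higher. Txn1, Txn2, Txnrd1 and Txnrd2 together have 11 probe sets that passed the floor on each array. All 11 read lower, as they also did under the 3 other scalings. This grouping leaves out Txnip, and with it 11 of 13 probe sets of the system read lower. Of 17516 such probe sets of all named genes, 55.4% read lower. Txn1, the cytosolic thioredoxin, had 2176 units after CCR4b RNAi and 2834 in the control (1.30-fold lower), and Txnrd1, its reductase, had 277 units after CCR4b RNAi and 388 in the control (1.40-fold lower). The 3 probe sets of Txnrd1 gave similar log2 ratios, at -0.49, -0.34 and -0.41. None of these values passed 1.5-fold.

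The mitochondrial pair was also lower, by 1.5-fold or more on the brightest probe sets. Txn2, mitochondrial thioredoxin, had 115 units after CCR4b RNAi and 173 in the control on its brightest probe set, of the _x_at kind (log2 ratio -0.59). That value was -0.45 with quantile normalization and -0.45 with loess, short of 1.5-fold. The other Txn2 probe sets gave log2 ratios of -0.26 and -0.63. Txnrd2, mitochondrial thioredoxin reductase, had the lowest ratio of all 39 measured members, with 10.0 units after CCR4b RNAi and 25.3 in the control (2.52-fold lower, log2 ratio -1.33). Its signals lay close to the floor, and the next probe sets gave only 1.21-fold and 1.04-fold lower, so the size for Txnrd2 rests on a single dim probe set. Prdx3, the peroxiredoxin that these proteins serve in mitochondria, had 288 units after CCR4b RNAi and 429 in the control, 1.49-fold lower on its only probe set.

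Txnip binds thioredoxin and blocks it. It was higher on both probe sets by nearly the same amount, with 633 units after CCR4b RNAi and 384 in the control (1.65-fold, log2 ratio 0.72) and with 317 and 191 units in the same order ( log2 ratio 0.73). Of the members with several probe sets and at least a 1.5-fold difference, Txnip showed the closest match between them.

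Peroxiredoxins, abundant enzymes that reduce peroxides with electrons from thioredoxin, had no measured member past 1.5-fold as deposited. With the arrays divided by their medians, Prdx3 passed it (log2 ratio -0.67). Prdx2 had 1155 units after CCR4b RNAi and 1358 in the control (log2 ratio -0.23), although a second probe set near the floor gave 0.31. Prdx4, of the endoplasmic reticulum, had 747 units after CCR4b RNAi and 764 in the control on its brightest probe set (log2 ratio -0.032, but 0.14 with a loess correction and 0.11 with quantile normalization), and 261 and 175 units in the same order on the next (log2 ratio 0.58). Its probe sets therefore do not agree. The 5 probe sets annotated jointly to Prdx1 and Gm21399 had log2 ratios between -0.28 and -0.10. Srxn1, sulfiredoxin, which repairs overoxidised peroxiredoxins, was lower on 4 of 4 probe sets, with log2 ratios of -0.14, -0.59, -0.23 and -0.25 from the brightest to the dimmest.

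The enzymes that dispose of superoxide and hydrogen peroxide differed little where they were bright. Sod1, the copper-zinc dismutase, had 879 units after CCR4b RNAi and 987 in the control (log2 ratio -0.17), close to -0.18 on its second bright probe set, with 0.040 and -0.68 on dim ones. Sod2, the mitochondrial manganese enzyme, had 994 units after CCR4b RNAi and 849 in the control (log2 ratio 0.23), with 0.076 and -0.15 on the next probe sets. Cat, catalase, had 383 units after CCR4b RNAi and 379 in the control (log2 ratio 0.013, but -0.081 after division of the arrays by their medians). Sod3, the secreted dismutase of the extracellular matrix, read 13.2 units after CCR4b RNAi and 2.36 in the control, below the floor, which makes it at least 1.64-fold higher. Its second probe set gave 10.9 and 0.590 units in the same order, at least 1.35-fold higher.

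**Figure D2:**
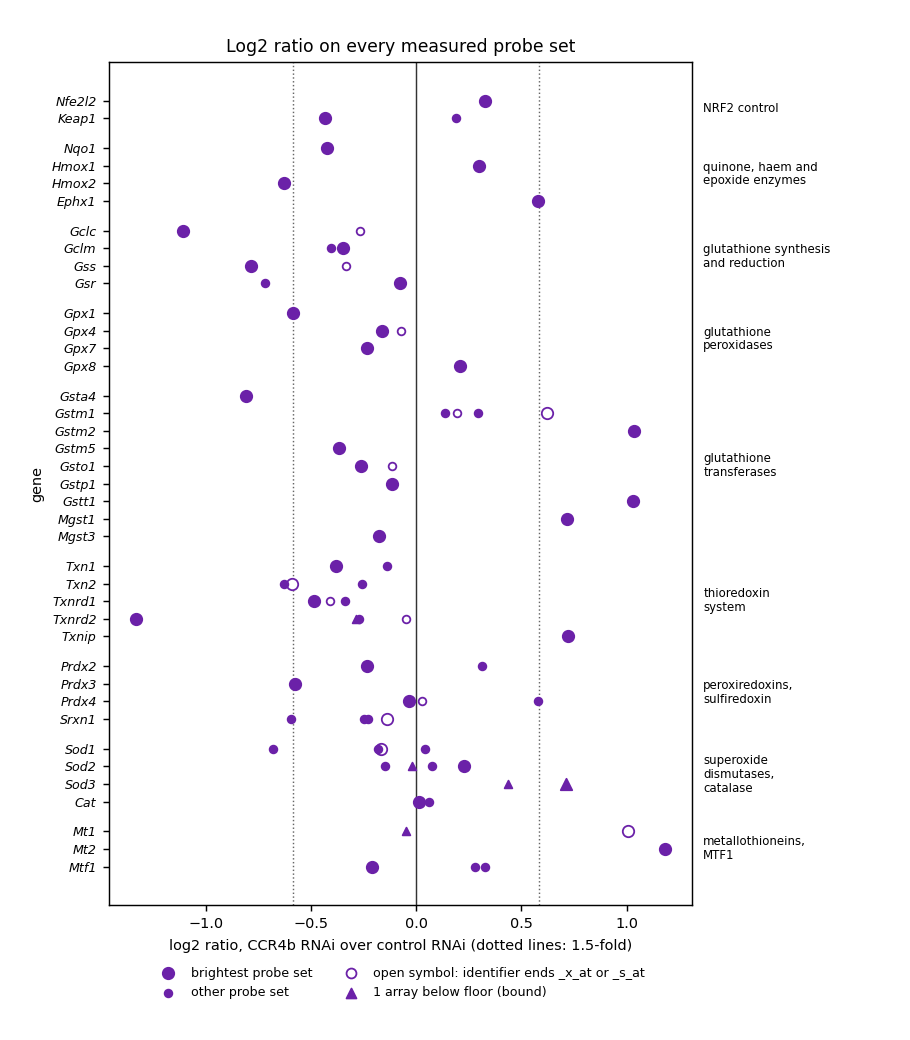
Log2 ratio of CCR4b RNAi over control RNAi on every probe set of the members that reached the floor on at least 1 array, with genes as rows grouped by role. Large symbols are the brightest probe set of a gene, open symbols are of the _x_at or _s_at kind, triangles are bounds, and dotted lines mark 1.5-fold. The glutathione synthesis, thioredoxin and reductase rows lie left of 0, and both Txnip symbols coincide near 0.72.

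Both metallothioneins were higher, and Mt2 had the highest log2 ratio of the 39 measured members. Mt2 had 1885 units after CCR4b RNAi and 830 in the control, 2.27-fold higher (log2 ratio 1.18), at percentile 98.9 of the genes in the brightest class. Mt1 had 1915 units after CCR4b RNAi and 952 in the control, 2.01-fold higher (log2 ratio 1.01), at percentile 98.5. The Mt1 probe set is of the _s_at kind. Its other probe set was at the floor, with 3.78 units after CCR4b RNAi and 8.35 in the control, and does not inform on a gene of this brightness. Whether the bright Mt1 probe set also takes up Mt2 transcripts was not tested.

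Mt1 and Mt2 lie side by side on chromosome 8, with Mt3 and then Mt4 beyond Mt2. Mt3, a form known best from brain, went the other way at a low signal: it read 1.19 units after CCR4b RNAi, below the floor, and 20.9 units in the control, at least 2.59-fold lower. Mt4 was below the floor on both arrays. Mtf1, the transcription factor, gave no clear direction, with log2 ratios of -0.21, 0.33 and 0.28 on its 3 probe sets past the floor. Its brightest read 35.7 units after CCR4b RNAi and 41.3 in the control.

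The upstream 250 bases of Mt2 and Mt1 are shown because these genes are neighbours that differed in the same direction. Capitals mark the core of the metal response element, searched as TGCACNC and TGCGCNC on both strands. Overlapping matches of these forms were counted separately.
Mt2, chr8:94172368-94172617, + strand: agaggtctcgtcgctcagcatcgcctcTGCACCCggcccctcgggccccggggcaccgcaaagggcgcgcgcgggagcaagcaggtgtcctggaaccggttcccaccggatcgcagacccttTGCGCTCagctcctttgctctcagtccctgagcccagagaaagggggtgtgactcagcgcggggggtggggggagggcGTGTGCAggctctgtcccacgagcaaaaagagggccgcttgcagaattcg
Mt1, chr8:94178839-94179088, + strand: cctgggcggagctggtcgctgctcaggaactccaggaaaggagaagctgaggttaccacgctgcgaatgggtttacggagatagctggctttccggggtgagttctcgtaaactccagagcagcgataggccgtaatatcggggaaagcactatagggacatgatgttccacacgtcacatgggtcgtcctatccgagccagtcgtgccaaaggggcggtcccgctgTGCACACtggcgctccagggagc
The whole 300-base window held 4 matches for Mt2 and 3 for Mt1. The remaining matches lie just after the annotated starts, at positions 5 for Mt2 and 3 and 21 for Mt1. Gclm, which read lower after CCR4b RNAi, also held 3. At least 3 matches occur in 1.97% of all 32851 promoter windows, and at least 1 in 25.7%. By gene, 11 of the 37 members with a window held the core, beside 28.2% of all genes. Mt3 and Mt4 held 1 match each. The antioxidant core named above also lies in the Mt2 window, 79 bases before the start.

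**Figure D3:**
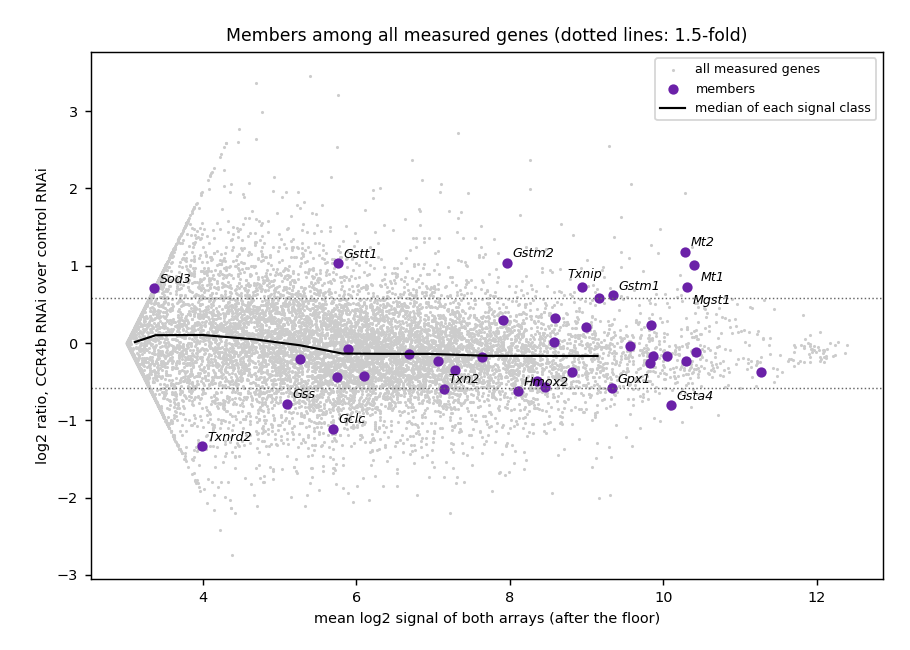
Log2 ratio of CCR4b RNAi over control RNAi against mean log2 signal for all 11915 measured genes (grey) and the 39 measured members (purple), with the median of each of 10 signal classes as a black line and 1.5-fold as dotted lines. Mt2 and Mt1 lie above nearly all genes of like signal. Txnrd2 and Sod3 lie at the dim end, and the ratio of Sod3 is a bound set by the floor.

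Agreement of probe sets was counted over 20 members for which at least 2 passed the floor on each array. For 14 of these, or 70%, the probe sets had a single sign, beside 56.5% of 4550 genes of that kind, and the difference was not tested. The count was 15 with the arrays divided by their medians and 12 with quantile normalization or loess, under which 57.1% and 57.0% of all such genes had a single sign. As deposited, the exceptions were Keap1, Mtf1, Prdx2, Prdx4, Sod1 and Sod2, all within 1.5-fold on the brightest probe set. With quantile normalization or loess, Gpx4, Gsr and Gsto1 joined them and Prdx4 left. The difference between the highest and lowest log2 ratio of a gene had a median of 0.45 for the members and 0.43 for all such genes, and it was largest for Txnrd2, at 1.28.

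Further genes of the same pathways, 88 in number, were described beside the members. Out of 78 measured, 3 passed 1.5-fold upwards and 9 downwards, beside the 11.3% and 14.6% of all genes given above. The lower count was 16 with the arrays divided by their medians, where 2259 of all 11910 measured genes were lower. The higher count was 5 with quantile normalization or loess, where 1429 of 11911 and 1461 of 11915 genes were higher. Tkt, transketolase of the pentose phosphate pathway, had 704 units after CCR4b RNAi and 1414 in the control (2.01-fold lower, and 2.35-fold on a second probe set). Me1, malic enzyme, which makes NADPH, was 1.71-fold and 1.62-fold lower on its brighter and dimmer probe set, and Taldo1, transaldolase, 1.55-fold lower. Among other NRF2 targets and partners, the higher ones were Aox1, an aldehyde oxidase, with 85.2 units after CCR4b RNAi and 30.2 in the control (2.83-fold), and Abcc4, an efflux transporter, with 27.6 and 17.0 units in the same order (1.63-fold).

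Of 17 measured genes of glutathione handling, 2 were lower by 1.5-fold or more, a share no larger than the 14.6% of all genes, and 0 were higher. Cth, which makes cysteine from cystathionine, had 9.31 units after CCR4b RNAi and 24.6 in the control (2.64-fold lower). That value rests on 1 dim probe set, close to the floor of 8.07 units after CCR4b RNAi. Chac1, which cleaves glutathione and is induced by ATF4, had 27.1 units after CCR4b RNAi and 70.6 in the control (2.61-fold lower). Of the other thioredoxin-fold and methionine sulfoxide reductase genes, 11 of 12 read lower, beside 6671 of all 11915 measured genes. All 12 lay within 1.5-fold on the brightest probe set. With quantile normalization 9 of 12 read lower, beside 6152 of 11911 genes. Over all their probe sets past the floor on both arrays, the log2 ratios as deposited ran from -1.28 to 0.31, so dimmer probe sets did pass 1.5-fold downwards.

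Selenoprotein genes and metal transporters differed at single genes. Selenop, the secreted carrier of selenium, had 1100 units after CCR4b RNAi and 514 in the control (2.14-fold higher), whereas Eefsec, the elongation factor that inserts selenocysteine, was 1.80-fold lower. Slc39a10, a zinc importer, had 32.8 units after CCR4b RNAi and 97.8 in the control (2.98-fold lower), and 2.12-fold lower on a second probe set. Cox17, a copper chaperone of mitochondria, was 1.56-fold lower on an _s_at probe set. Slc30a1, a zinc exporter and a known target of MTF1, had a log2 ratio of 0.091 on its brighter probe set, while the dimmer one gave 14.4 units after CCR4b RNAi and 2.66 in the control, where it missed the floor (at least 1.79-fold higher). It was chosen for naming after its values were seen.

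**Figure D4:**
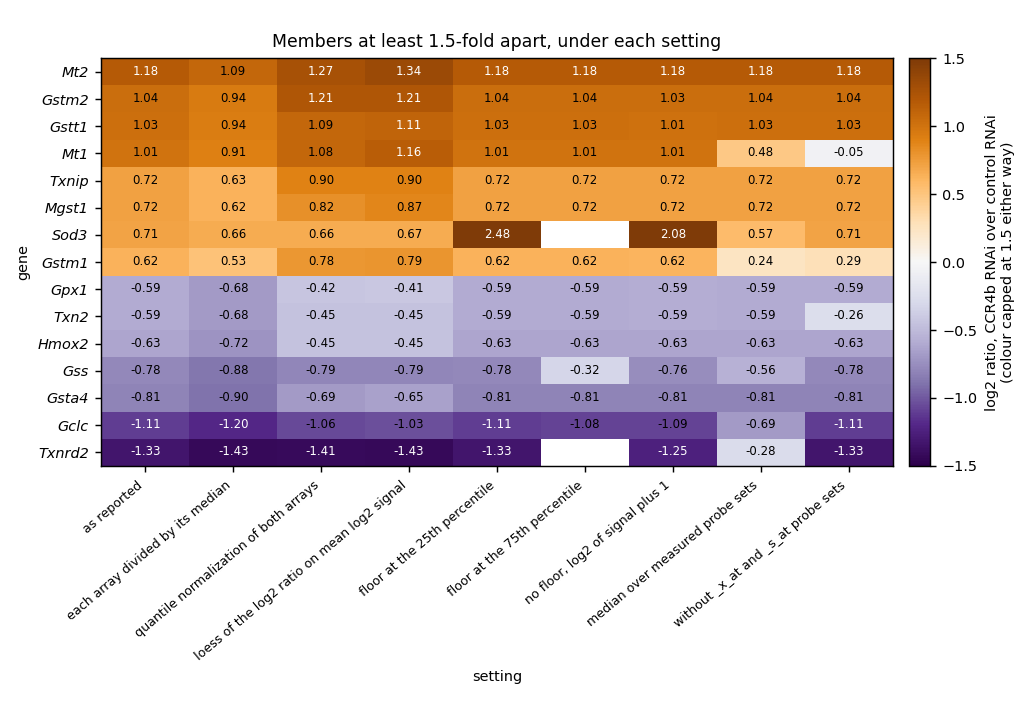
Log2 ratio of CCR4b RNAi over control RNAi for the 15 members at least 1.5-fold apart (rows) as reported and under 8 other settings (columns), with colour from purple (lower) to orange (higher) and blank cells where the gene was not measured. The row of Mt1 loses its difference without _x_at and _s_at probe sets, and the rows of Mt2, Gstm2, Gstt1, Txnip, Mgst1, Gsta4 and Gclc stay past 1.5-fold in all columns.

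Of the 15 members at least 1.5-fold apart, 7 stayed so under all 8 other settings, namely Mt2, Gstm2, Gstt1, Mgst1, Txnip, Gclc and Gsta4. Of these, Mt2, Gstm2, Gstt1, Mgst1 and Gsta4 each rest on 1 probe set, not of the _x_at or _s_at kind. The median over probe sets and the omission of such probe sets therefore could not change them. Their signals lay above both alternative floors on both arrays, so these floors could not change them either. Without a floor they moved little, the most for Gstt1, from a log2 ratio of 1.03 to 1.01. For these genes, staying past 1.5-fold is thus informative mainly under the scalings. The other members past 1.5-fold depended on the scaling, on the floor, on the choice of probe set or on a value close to the line. Hmox2 and Gpx1 fell short only with quantile normalization (log2 ratios -0.45 and -0.42) and with loess (-0.45 and -0.41). Gpx1 and Txn2 lay just past 1.5-fold, and Ephx1 and Prdx3, both at 1.49-fold, just short of it. Ephx1 passed it with quantile normalization (log2 ratio 0.74) and with loess (0.75), and Prdx3 with the arrays divided by their medians (-0.67).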

How the data were processed

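The 44 members and the lists of related genes and markers were chosen with earlier results of these data known. The authors deposited linear intensities, 1 per probe set, for 2 Affymetrix Mouse Genome arrays. They come from GCOS, per the submitters' processing notes, with global normalization, per the series design text. A software version, a target value and detection calls were not given in those sources. Groups follow the knockdown label. Array number limits the precision.

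Signals were raised to the 50th percentile of all values (8.07 units), a floor standing in for detection calls, and compared as log2 of CCR4b RNAi over control RNAi. Each gene was represented by its brightest probe set (mean log2 of both arrays). Of 45101 probe sets, 34958 have 1 symbol in the platform annotation, 932 have several and 9211 are unnamed here. All 84 probe sets of the members matched RefSeq by gene ID, and 0 symbols changed. A member was given in full if it was at least 1.5-fold apart, had a bound or had opposing probe sets, and related genes if at least 1.5-fold apart. A bound is a ratio against the floor. Signal classes are 10 equal groups of genes by mean log2 signal. The procedure was run on simulated data with 2-fold differences in bright genes and noise smaller than the same-gene probe-set spread. That run does not cover dim genes or differences near 1.5-fold. Alternatives were 3 scalings (array median, quantile, and loess with span 0.3), floors at percentiles 25 and 75, no floor with a pseudocount of 1, the median over probe sets, omission of those ending in _x_at or _s_at, and 2-fold. Python 3.11.15, pandas 2.3.3, numpy 2.4.6 and statsmodels 0.14.6 were used.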

Additional observations from a re-analysis of the deposited data

How the results depend on the processing

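With 1 array per group, settings show how values move with the processing and not how cultures vary. No paired analysis was possible because each group holds 1 array. The values counted next include those of bright genes with 1 probe set, which several settings could not change. Of 142 values of named members under the 8 alternatives, 130 moved by less than the same-gene probe-set spread of 0.30 log2 units, 11 moved by more, and 1 of a member past 1.5-fold changed sign: Mt1 had -0.048 without _x_at and _s_at probe sets, because only a probe set at the floor is then left. The count of members at least 1.5-fold lower was 4 with quantile normalization and 4 with loess, where the median of the members was -0.020 and -0.0092. Of all genes, 1547 of 11911 and 1505 of 11915 were lower in the same order. The share of higher genes among those past 1.5-fold was 69.2% for the members under both scalings, against 53.3% as reported. For all genes it was 48.0% and 49.3%, against 43.7%. With each array divided by its median it was 46.7% for the members and 32.4% for all genes. The count higher was 5 with the median over probe sets, beside 1229 of 11991 genes. At 2-fold the counts were 4 higher and 2 lower. The higher count was 1 with each array divided by its median, where 3.05% of all genes were 2-fold higher. That alternative and the scalings of the probe-set agreement were added after seeing the data. Of the related genes, whose alternatives were added after seeing the data, 16 were lower with each array divided by its median, beside 2259 of all 11910 genes. With quantile normalization 5 were higher, beside 1429 of 11911 genes, and with loess 5, beside 1461 of 11915. Sod3 and Txnrd2 could not be measured with the floor at percentile 75, and Txnrd2 had -0.28 on the median of its probe sets. Mtf1, short of 1.5-fold, had 0.28 on the median of its probe sets, against -0.21 as reported. Dim signals near the floor limit Sod3 and Txnrd2.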
